A study of Oryctolagus cuniculus with 36 samples.

Results

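The 7 genes described here encode enzymes of phenylalanine and tyrosine breakdown in rabbit liver, namely PCBD1, QDPR, TAT, HPD, HGD, GSTZ1 and FAH. They were chosen by gene symbol along the pathway from phenylalanine to fumarate, out of 23394 genes in the deposited table. All 7 were listed there, and all 7 passed the filter on low counts, which kept 14939 genes.

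Tyrosine breakdown is mainly a task of hepatocytes. TAT moves the amino group of tyrosine to 2-oxoglutarate, HPD turns the product into homogentisate, HGD opens its ring, GSTZ1 isomerizes maleylacetoacetate to fumarylacetoacetate, and FAH splits that into fumarate and acetoacetate. PCBD1 and QDPR act before this chain: together they restore tetrahydrobiopterin, the cofactor used when phenylalanine is hydroxylated to tyrosine. Without FAH, fumarylacetoacetate and succinylacetone build up, which is hereditary tyrosinemia type I, and the drug nitisinone stops the chain earlier by inhibiting HPD.

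The livers belong to a study of gene correction with CRISPR/Cas9 in newborn rabbits with this disease. Titles form 3 groups, FA, FK and wild type (WT), each with 3 numbered sets of 4 libraries. The labels do not spell out FA or FK and give no allele, agent, dose or age for any group. The disease label is identical on all 36 samples, WT among them, and only the titles tell the groups apart; all livers were treated with trypsin before RNA extraction.

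Libraries held 15.1 to 22.5 M counts in FA, 11.7 to 16.1 M in FK and 14.2 to 18.7 M in WT. No label ties the 4 libraries of a set, or the sets, to separate animals, so the 4 were summed to 1 replicate (n = 3 sets per group). The p-values rest on variation from set to set, which could be technical alone. FK sets 1 and 2 stood apart from the rest. Across genes they correlated at r = 0.963 with each other but at 0.854 and 0.821 with FK set 3, which correlated at 0.958 to 0.970 with the FA sets. The enzymes' results in FK are therefore given with and without FK set 3. Levels are CPM, counts scaled to a fixed library total after TMM correction for library composition. They serve to compare a gene between groups, not genes with each other, since no transcript lengths were used.

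FAH fell in both FA and FK, and in FK it was joined by HPD and QDPR. The level of FAH in FA and FK was 9.66% and 5.90% of the WT mean, that of HPD 53.6% and 30.6%, and that of QDPR 83.1% and 43.1%. PCBD1, TAT, HGD and GSTZ1 did not pass the test in either group, nor did HPD and QDPR in FA. TAT stood apart in direction, with an FK mean 2.07 times that of WT, carried by FK sets 1 and 2. A gene is said to have risen or fallen where edgeR's quasi-likelihood test, adjusted by Benjamini-Hochberg over all 14939 genes, gave p under 0.05. Between FK and WT 3 of the 7 enzymes fell and none rose, against 1.73% of all genes tested that fell and 3.04% that rose. Between FA and WT 1 of 7 fell and none rose, against 0.0736% of all genes that fell and 0.0937% that rose.

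**Figure D1:**
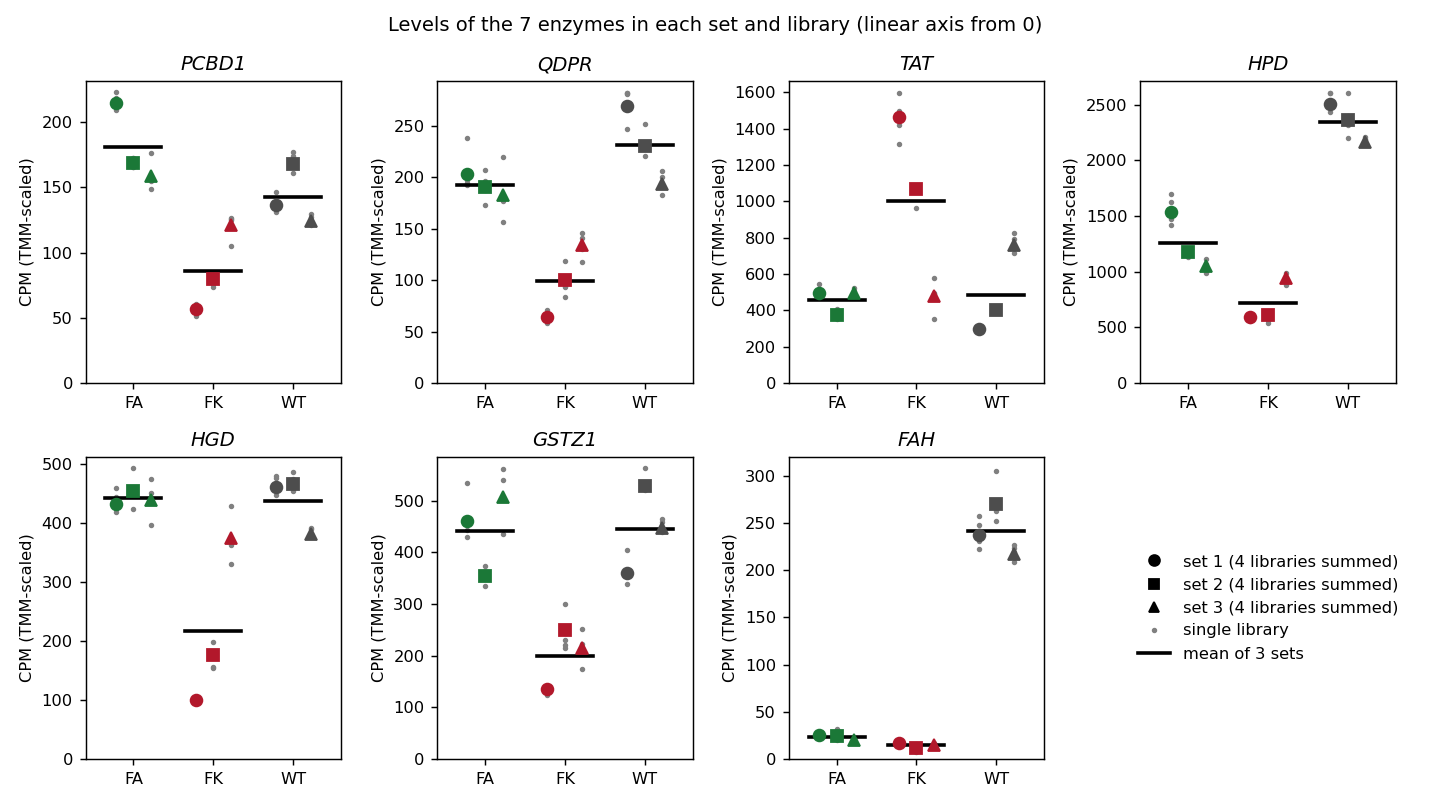
CPM of each enzyme (vertical axes, linear from 0) in FA, FK and WT: large symbols are the 3 sets per group, dots the single libraries and bars the mean of the sets. FAH and HPD separated WT from both other groups, and the TAT symbols of FK sets 1 and 2 lay above all others.

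The recycling enzyme PCBD1, a dehydratase that also serves as a partner of the transcription factor HNF1, stood at 214, 169 and 159 CPM in FA sets 1, 2 and 3, at 56.6, 79.8 and 121 CPM in FK sets 1, 2 and 3, and at 136, 168 and 124 CPM in WT sets 1, 2 and 3. All FK sets lay below all WT sets, FK set 3 by little, and FA overlapped with WT. Such a separation held for PCBD1, QDPR, HPD, HGD, GSTZ1 and FAH, 6 of the 7, against 13.4% of all genes with every FK set below every WT set. The fitted log2 difference was -0.73 for FK minus WT (SE 0.30, 95% interval -1.41 to -0.06, edgeR adjusted p = 0.156) and 0.34 for FA minus WT (interval -0.33 to 1.01, edgeR adjusted p = 0.758), so neither passed. Without FK set 3 the FK difference was -1.08 and passed (edgeR adjusted p = 0.0114).

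QDPR, the reductase that completes the recycling, stood at 203, 190.3 and 183 CPM in the FA sets, at 64.7, 100.5 and 134 CPM in the FK sets and at 269, 230.4 and 194 CPM in the WT sets. Each FK set was below each FA set and each WT set, while FA and WT overlapped. QDPR in FK fell by 1.21 on the log2 scale (SE 0.28, 95% interval -1.86 to -0.57, edgeR adjusted p = 0.0491), which is just inside the threshold. The FA difference was -0.27 (interval -0.90 to 0.37, edgeR adjusted p = 0.809). The fall in FK was -1.50 without FK set 3 (edgeR adjusted p = 0.00265), but the call was lost in 14 of 18 alternatives, with adjusted p of up to 0.234. QDPR and PCBD1 did not keep their WT proportion: QDPR had 0.948, 1.13 and 1.15 counts per PCBD1 count in the FA sets, 1.14, 1.26 and 1.11 in the FK sets and 1.97, 1.38 and 1.56 in the WT sets. This ratio is taken on the summed counts of a set, so no scaling touches it, and the WT sets had the 3 highest values of the 9. Single libraries ran from 0.871 to 1.24 in FA, from 1.04 to 1.43 in FK and from 1.27 to 2.07 in WT, so FK and WT libraries overlapped. The ratio was chosen after the values were seen and carries no test.

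TAT, the aminotransferase that commits tyrosine to breakdown and that in rat liver is induced by glucocorticoids, stood at 495, 376 and 497 CPM in the FA sets, at 1464, 1069.5 and 478 CPM in the FK sets and at 296, 401 and 762 CPM in the WT sets. FK sets 1 and 2 were above every other set, FK set 3 lay among the FA and WT sets, and the coefficient of variation between sets was 15.2% in FA, 49.5% in FK and 50.3% in WT. The log2 difference was 1.05 for FK minus WT (SE 0.48, 95% interval -0.05 to 2.14, edgeR adjusted p = 0.203) and -0.09 for FA minus WT (interval -1.18 to 0.99, edgeR adjusted p = 0.971). Neither passed, and the width of both intervals follows the spread between sets. Without FK set 3 TAT was higher in FK by 1.36 (edgeR adjusted p = 0.0225), while with FK set 3 as the sole FK set the difference was -0.06 (edgeR adjusted p = 0.968), a fit in which that set is assumed to vary like the other groups.

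HPD, the dioxygenase that nitisinone blocks, was below WT in every FA and FK set. It stood at 1534, 1175 and 1054 CPM in the FA sets, at 592, 616 and 940.3 CPM in the FK sets and at 2503, 2357 and 2167 CPM in the WT sets, so that the 3 groups did not overlap. Single libraries ran from 988 to 1694 CPM in FA, with a median of 1187, from 537 to 990.1 CPM in FK, with a median of 619, and from 2167 to 2607 CPM in WT, with a median of 2359. Every WT library was thus above every FA and FK library, while the lowest FA and the highest FK library crossed. HPD in FK fell by 1.71 on the log2 scale (SE 0.34, 95% interval -2.47 to -0.95, edgeR adjusted p = 0.0382), or 3.27-fold, and by 1.98 without FK set 3 (edgeR adjusted p = 0.000792). In FA the difference was -0.90 (SE 0.33, interval -1.65 to -0.15), which edgeR did not call (adjusted p = 0.41), whereas DESeq2 did (adjusted p = 0.0433), beside 0.979% of all genes lower in FA by DESeq2. The edgeR adjusted p of HPD in FA depended on the sets in the fit. It was 0.102 with only the FA and WT sets and 0.0969 without FK set 3, again without a call. HPD was not alone in such a separation, since 12.4% of all genes tested had every FA set below every WT set. The FK call was lost in 12 of 18 alternatives, with adjusted p of up to 0.153; the calls of both HPD and QDPR were lost when any 1 set other than FK set 3 was left out.

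HGD, the dioxygenase whose loss causes alkaptonuria, was almost level between FA and WT. It stood at 434, 455 and 439 CPM in the FA sets, at 100.04, 176 and 374 CPM in the FK sets and at 462, 466 and 383 CPM in the WT sets. All FK sets lay below all WT sets, by a wide margin in FK sets 1 and 2 and a narrow one in FK set 3. The log2 difference was 0.02 for FA minus WT (interval -0.94 to 0.98, edgeR adjusted p = 0.994) and -1.01 for FK minus WT (SE 0.43, interval -1.98 to -0.04, edgeR adjusted p = 0.172). Without FK set 3 the FK difference was -1.68 and passed (edgeR adjusted p = 0.00237), which moves the fold by more than 1.5 times.

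GSTZ1, the isomerase that also metabolizes dichloroacetate, stood at 461, 355 and 507 CPM in the FA sets, at 135, 249 and 215 CPM in the FK sets and at 359, 529 and 448 CPM in the WT sets. Here FK set 3 was lower than FK set 2, all FK sets were below all WT sets, and FA and WT overlapped. The log2 difference was -1.16 for FK minus WT (SE 0.31, interval -1.86 to -0.46), short of the threshold in edgeR (adjusted p = 0.0609) and past it in DESeq2 (adjusted p = 0.00265) and without FK set 3 (edgeR adjusted p = 0.0194). By DESeq2 4 of the 7 enzymes were lower in FK than in WT, namely QDPR, HPD, GSTZ1 and FAH, against 5.97% of all genes. For FA minus WT it was -0.01 (interval -0.70 to 0.68, edgeR adjusted p = 0.994).

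FAH, the last enzyme and the gene of the disease, stood at 25.7, 24.7 and 19.6 CPM in the FA sets, at 16.4, 11.8 and 14.6 CPM in the FK sets and at 237, 271 and 218 CPM in the WT sets. Per library it was measured by 256 to 550 counts in FA, 120 to 290 in FK and 2910 to 4633 in WT, so that no library was without FAH counts. The fall was -3.37 in FA (SE 0.22, edgeR adjusted p = 0.00183) and -4.08 in FK (SE 0.23, edgeR adjusted p = 0.000466), and both calls held in all 18 alternatives, at -3.45 to -3.26 and -4.27 to -3.97. In FK it was -4.12 without FK set 3 (edgeR adjusted p = 2.94e-05). The labels do not give the altered part of the gene, and gene counts do not tell intact from altered transcripts. FAH in FK differed less between the sets than the other enzymes did, with a coefficient of variation of 16.0% against 27.2% to 65.3% for the other 6. Within FK set 2, however, the 4 libraries varied by 31.5% in FAH, more than the FK sets did.

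**Figure D2:**
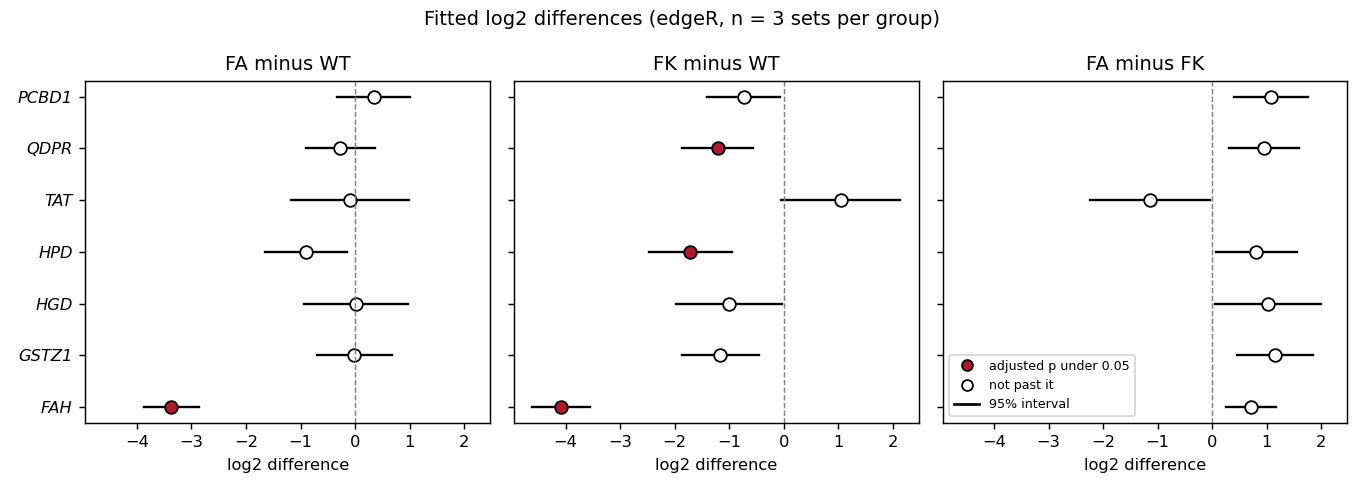
Fitted log2 differences of the 7 enzymes (rows) in FA minus WT, FK minus WT and FA minus FK, with 95% intervals; filled circles passed an adjusted p of 0.05. Only FAH passed in FA minus WT, FAH, HPD and QDPR passed in FK minus WT, and none passed in FA minus FK.

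Of the 6 enzymes other than FAH, HPD had its sets below WT in FA, and all but TAT did in FK. In FK 2 of 6 fell and none rose, 5 of 6 had a negative log2 difference, and the median was -1.09, against 0.05 over all genes tested. In FA none of 6 was called by edgeR (adjusted p under 0.05; 1 of 6 had an unadjusted p under 0.05, HPD, against 10.2% of all genes, and DESeq2 called 1, also HPD), and the median was -0.05, against 0.00 over all genes. Taking each set against the WT mean, the median of the 6 was 0.01, -0.30 and 0.02 in FA sets 1, 2 and 3, and -1.78, -1.02 and -0.51 in FK sets 1, 2 and 3. Thus all 3 FK sets lay below all FA and WT sets in this median, and FK set 3 was the nearest to them. Without FK set 3 all 6 enzymes passed between FK and WT, 5 lower and TAT higher. That fit called 34.9% of all genes, 18.7% higher and 16.2% lower in FK, whereas the fit with all sets called 4.77%.

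**Figure D3:**
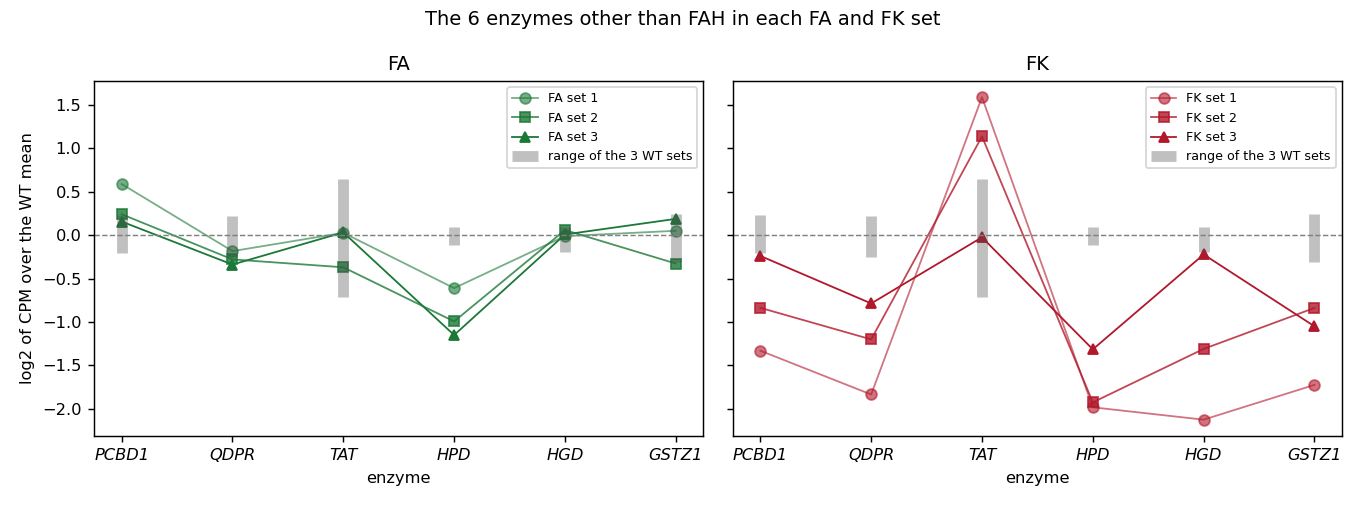
Log2 of CPM over the WT mean for the 6 enzymes other than FAH (horizontal axis) in each FA set and each FK set; grey bars span the WT sets. HPD was the one enzyme at which all 3 FA sets were below the WT sets, at -1.15 to -0.61, and FK sets 1 and 2 were low at every enzyme but TAT.

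The comparison of FA with FK shows whether the 2 groups with low FAH differed from each other in the pathway. Every enzyme but TAT had a higher mean in FA than in FK, by 0.71 (FAH) to 1.15 (GSTZ1) on the log2 scale, and TAT had a lower one (-1.14). None of the 7 passed in edgeR (adjusted p of 0.115 to 0.216), where 0% of all genes was called and 21.9% had an unadjusted p under 0.05. The sets did not overlap for PCBD1, QDPR, HPD, HGD, GSTZ1 and FAH, whereas they did for TAT, and 8.24% of all genes had every FA set above every FK set. The intervals were 0.40 to 1.75 for PCBD1, 0.30 to 1.59 for QDPR, -2.24 to -0.04 for TAT, 0.06 to 1.56 for HPD, 0.06 to 2.00 for HGD, 0.45 to 1.84 for GSTZ1 and 0.25 to 1.18 for FAH, so that those of TAT, HPD and HGD came close to 0. DESeq2 called 5 of 7, all higher in FA, beside 2.33% of all genes. Without FK set 3 all 7 passed in edgeR, 6 higher and TAT lower in FA, where 16.4% of all genes were higher and 18.1% lower.

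Counts of 1 enzyme per count of another do not depend on how libraries are scaled. TAT had 0.323, 0.320 and 0.471 counts per HPD count in the FA sets, 2.47, 1.74 and 0.508 in the FK sets and 0.118, 0.170 and 0.351 in the WT sets. All 3 FK sets, set 3 included, lay above all FA and WT sets, and FA and WT overlapped. Single libraries ran from 0.284 to 0.514 in FA, from 0.381 to 2.86 in FK and from 0.115 to 0.377 in WT. These ratios were chosen after the values were seen and carry no test.

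**Figure D4:**
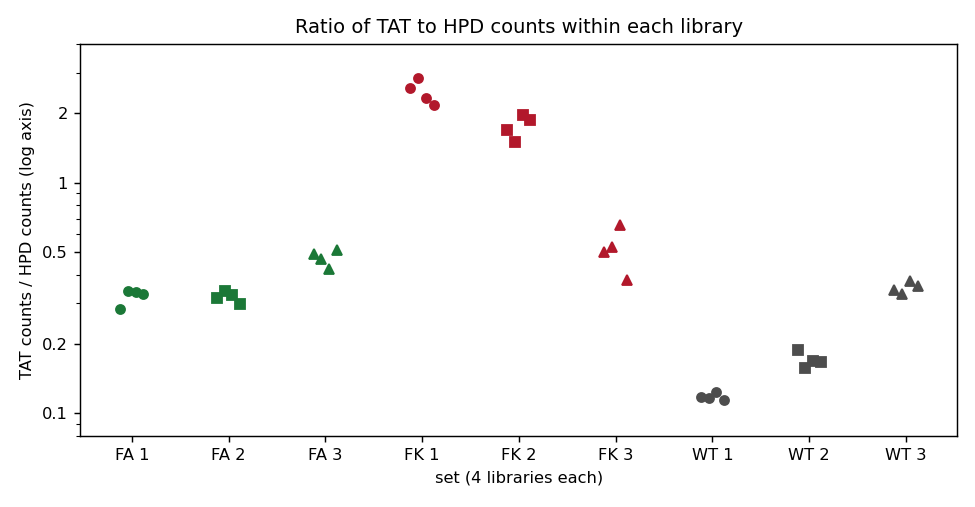
TAT counts per HPD count in each of the 36 libraries (log axis), grouped by set. FK sets 1 and 2 had 1.74 or more TAT counts per HPD count when summed, and all WT libraries stayed at or below 0.377.

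FAH and HPD together show a different pattern. FAH had 0.0168, 0.0210 and 0.0186 counts per HPD count in the FA sets, 0.0277, 0.0192 and 0.0155 in the FK sets and 0.0947, 0.115 and 0.100 in the WT sets. FA and FK overlapped in this ratio, and both were below WT in every set. HPD had 3.54, 2.58 and 2.40 counts per HGD count in the FA sets, 5.92, 3.50 and 2.51 in the FK sets and 5.42, 5.05 and 5.66 in the WT sets. HPD was thus low in relation to HGD in all FA sets and in FK sets 2 and 3, but not in FK set 1, where both were low.

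Summed over the 7 enzymes, the pathway took 0.306%, 0.269% and 0.274% of the counts in the FA sets, 0.260%, 0.286% and 0.218% in the FK sets and 0.437%, 0.433% and 0.393% in the WT sets. TAT made up 14.7%, 13.7% and 17.4% of these counts in the FA sets, 60.3%, 46.5% and 21.0% in the FK sets and 6.94%, 9.06% and 17.7% in the WT sets. In FK set 1 the other 6 enzymes therefore shared the smaller part, and HPD, which gave 50.5% to 58.7% of the pathway's counts in the WT sets, gave 24.4%, 26.7% and 41.3% in the FK sets. These shares are of counts, which a long transcript yields more of than a short one.

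The enzymes were most alike in pairs that excluded TAT and FAH. Likeness was measured as the root mean square difference of log2 CPM over the 9 sets, each gene centred on its own mean. QDPR and HGD were the nearest pair, at 0.256, followed by PCBD1 with QDPR and PCBD1 with HGD, both at 0.297. The 10 pairs among PCBD1, QDPR, HPD, HGD and GSTZ1 lay between 0.256 and 0.556. TAT was 1.20 or more from each of them and FAH 1.14 or more, with HPD as the nearest enzyme to FAH.

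Outside the pathway, 6529 genes with a symbol and a mean of at least 10 CPM over the 9 sets were set against these profiles in the same way. Genes picked as the nearest lie under the median distance by that choice, so the medians only give the scale. Nearest to FAH were G0S2, an inhibitor of the triglyceride lipase ATGL, at 0.465, HMCN2 at 0.636 and KRBOX1 at 0.657, against a median of 1.79 over all 6529. G0S2 averaged 7.63 CPM in FA, 3.92 in FK and 69.8 in WT. HMCN2 averaged 7.36 CPM in FA, 1.90 in FK and 40.4 in WT, and KRBOX1 5.48 in FA, 1.22 in FK and 27.5 in WT, so all 3 passed the minimum only through WT. Nearest to HPD were GOLT1A at 0.212, the lipoprotein receptor SCARB1 at 0.223 and AFMID, the formamidase of tryptophan breakdown, at 0.223, against a median of 0.783. SCARB1 averaged 98.7 CPM in FA, 52.9 in FK and 148 in WT, and AFMID 42.6 in FA, 23.3 in FK and 88.9 in WT. FILIP1L, NAP1L1 and DDX21 were nearest to TAT, at 0.226, 0.251 and 0.262, against a median of 0.795. UBL4A and VAPB were nearest to the mean of the 6 enzymes without FAH, at 0.114 and 0.117, against a median of 0.498.

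In the order of the RefSeq gene table, none of the 7 had another of them among the 2 genes on either side. Of 21 such neighbours that were tested, none was called between FA and WT and 1 between FK and WT, RHOF (-1.69, edgeR adjusted p = 0.0392), which lies beyond SETD1B from HPD. That share is near the 4.77% called over all genes. The neighbours of FAH, namely ABHD17C, ARNT2, ZFAND6 and BCL2A1, had log2 differences of 0.09, -1.13, 0.11 and -0.22 in FA minus WT and 0.58, -0.56, -0.09 and 0.30 in FK minus WT, none of them called.

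Tetrahydrobiopterin is made by GCH1, PTS and SPR, and GCHFR restrains GCH1. Of these 4 genes none was called between FA and WT, and 1 fell and none rose between FK and WT. Over all genes tested, 1.73% fell and 3.04% rose in FK. SPR, the last enzyme of the synthesis, stood at 63.7, 34.1 and 65.3 CPM in the FA sets, 13.4, 22.2 and 25.0 CPM in the FK sets and 61.5, 39.8 and 65.2 CPM in the WT sets. It fell in FK (log2 difference -1.46, SE 0.34, edgeR adjusted p = 0.0489). GCH1, the first enzyme, stood the other way without passing, at 47.6, 71.1 and 33.3 CPM in the FK sets against 13.8, 23.9 and 29.6 CPM in the WT sets (1.17, edgeR adjusted p = 0.0777).

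Of 8 genes of side routes and related enzymes, among them the aminotransferases GOT1 and GOT2, which can also act on tyrosine, and FAHD1, a relative of FAH, none was called in FA or FK against WT. Their medians were 0.00 and -0.61. GOT1 stood at 425, 241 and 263 CPM in the FA sets, 337, 322 and 217 in the FK sets and 468, 368 and 464 in the WT sets, and FAHD1 differed by -0.08 in FA and -0.44 in FK (edgeR adjusted p = 0.956 and 0.364). IL4I1, an amino acid oxidase, had the smallest p in FK (edgeR adjusted p = 0.137).

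Among 8 carriers, 7 of them tested, that move aromatic amino acids across membranes, 1 rose in FK and none was called in FA. The share of all genes tested that rose in FK was 3.04%. SLC7A5, the large neutral amino acid exchanger, stood at 0.393, 0.599 and 0.402 CPM in the FA sets, at 17.2, 66.5 and 0.372 CPM in FK sets 1, 2 and 3, and at 0.431, 0.499 and 0.535 CPM in the WT sets. The rise (log2 difference 5.84, SE 1.39, edgeR adjusted p = 0.05, just under the threshold before rounding) rested on FK sets 1 and 2, since FK set 3 was below the WT sets. SLC43A1, another such carrier, was at 37.4, 54.5 and 25.4 CPM in the FK sets and 9.17, 15.3 and 13.4 CPM in the WT sets, without a call (edgeR adjusted p = 0.0513).

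Of 9 genes that use the end products fumarate and acetoacetate, 1 rose in FK, 0 fell, and none was called in FA. Among all genes tested, 3.04% rose and 1.73% fell in FK. ACAT1, the mitochondrial thiolase that cleaves acetoacetyl-CoA, stood at 416, 342 and 399 CPM in the FA sets, 631, 495 and 423 CPM in the FK sets and 233, 275 and 243 CPM in the WT sets. It rose in FK (log2 difference 1.04, SE 0.25, edgeR adjusted p = 0.0492). OXCT1, which activates acetoacetate and is normally scarce in liver, was at 27.2, 23.4 and 6.27 CPM in the FK sets and 5.18, 4.82 and 7.21 CPM in the WT sets (edgeR adjusted p = 0.0642). FH, which hydrates fumarate, did not pass in FK (-0.47, edgeR adjusted p = 0.366).

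Because TAT is a glucocorticoid-induced gene in rat liver, 15 other genes listed for such induction, NR3C1 for the receptor among them, were set beside it. None was called in FA or FK against WT by edgeR (medians of -0.29 and 1.16), and DESeq2 called 0 in FA and 5 higher in FK (11% of all genes). Without FK set 3 edgeR called 7 higher and 2 lower in FK, beside 18.7% and 16.2% of all genes. PCK1, the gatekeeper of gluconeogenesis, stood at 1606, 1278 and 79.6 CPM in the FK sets against 23.1, 103 and 621 CPM in the WT sets, and SDS, which deaminates serine, at 1362, 1493 and 57.6 against 143, 119.5 and 133. FKBP5, a cochaperone of the receptor, stood at 115, 153 and 16.0 CPM in the FK sets against 4.86, 8.52 and 5.65 CPM in the WT sets (edgeR adjusted p = 0.0504). For 8 of the 15 genes, PCK1, SDS and FKBP5 among them, FK sets 1 and 2 had the 2 highest values of the 9 sets, as for TAT, against 22% of all genes tested. For 2 of the 15, PDK4 and NR3C1, they had the 2 lowest, against 20.2% of all genes. NR3C1, the receptor itself, was at 59.0, 50.4 and 101 CPM in the FK sets and 102, 106 and 122 CPM in the WT sets. TSC22D3 and TDO2 were neither among the 8 nor among the 2. TSC22D3 stood at 236.5, 85.9 and 129 CPM in the FK sets against 147, 144.8 and 380 in the WT sets. TDO2 stood at 736, 204 and 972 CPM in the FK sets against 367, 702 and 492 in the WT sets. Whether glucocorticoids had a part in the TAT levels was not tested.

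Summed erythroid markers, neutrophil markers and cell division genes were highest in FK sets 1 and 2. In each of these sums FK set 3 lay within the range of the FA sets. Summed over 17 erythroid markers, all present and tested, levels were 136 to 285 CPM in FA, 1015, 2628 and 179.5 CPM in FK sets 1, 2 and 3, and 64.2 to 143 CPM in WT. TFRC, an iron uptake receptor, alone averaged 161 CPM in FA, 218 in FK and 23.9 in WT. The median log2 of the 17 over the WT mean was -0.901, -0.862 and -1.548 in the FA sets. It was 5.69, 6.29 and -1.24 in FK sets 1, 2 and 3, and -0.655, -0.43 and 1.20 in the WT sets. The higher sums in FA and FK set 3 thus did not hold for most of the list. For 9 neutrophil markers in the table they were 17.9 to 39.4 CPM in FA, 1075, 1570 and 26.3 CPM in FK sets 1, 2 and 3, and 15.4 to 25.2 CPM in WT. The 14 cell division genes summed to 47.4 to 59.2 CPM in FA, to 364, 839 and 51.6 CPM in FK and to 49.4 to 96.4 CPM in WT. With all sets 1 of 17 (TFRC), 3 of 8 tested and 5 of 14 rose in FK, and none fell, beside 3.04% of all genes that rose. The counts were 17 of 17, 9 of 9 and 13 of 14 without FK set 3, beside 18.7% of all genes higher in that fit. In bulk liver, fewer cells of a type and less RNA per cell cannot be told apart. The part of other cells in the lower enzyme levels of FK sets 1 and 2 was not tested.

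For hepatocyte markers no fall was called in FK with all sets. Summed over 17 markers, led by ALB, they were 269000 to 313400 CPM in FA, 309000, 204100 and 286700 CPM in FK sets 1, 2 and 3, and 233300 to 298300 CPM in WT. The list median was 0.14 in FA minus WT and 0.00 in FK minus WT. Both the sum and the median cover opposite moves of single markers in FK. TTR was at 838, 1136 and 3293 CPM in the FK sets against 3741, 4039 and 4440 CPM in the WT sets. FGB was at 32380, 16170 and 18140 CPM against 9524, 9200 and 9357 CPM. Of the 17, 1 rose in FK (APOA1) and none fell, beside 3.04% of all genes that rose and 1.73% that fell. APOA1 averaged 37.1 CPM in WT and 1785 in FK. The FK mean rested on FK sets 1 and 2, since FK sets 1, 2 and 3 were at 2716, 2564 and 74.8 CPM. Without FK set 3 there were 6 higher and 5 lower, beside 18.7% and 16.2% of all genes. Scaled to these markers in place of TMM, the FK minus WT differences were -1.81 for HPD (edgeR adjusted p = 0.0466), -1.31 for QDPR (edgeR adjusted p = 0.0763) and -1.20 for GSTZ1 (edgeR adjusted p = 0.114), so that HPD passed and QDPR did not. In FK set 3, where the erythroid and neutrophil sums were near FA levels, HPD was at 940.3 CPM, GSTZ1 at 215 CPM and QDPR at 134 CPM, all under every WT set. PCBD1 (121 CPM) and HGD (374 CPM) were only just under the lowest WT set (124 and 383 CPM), and TAT (478 CPM) lay among the WT sets. This is 1 set, and the cause of these levels was not tested.

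**Figure D5:**
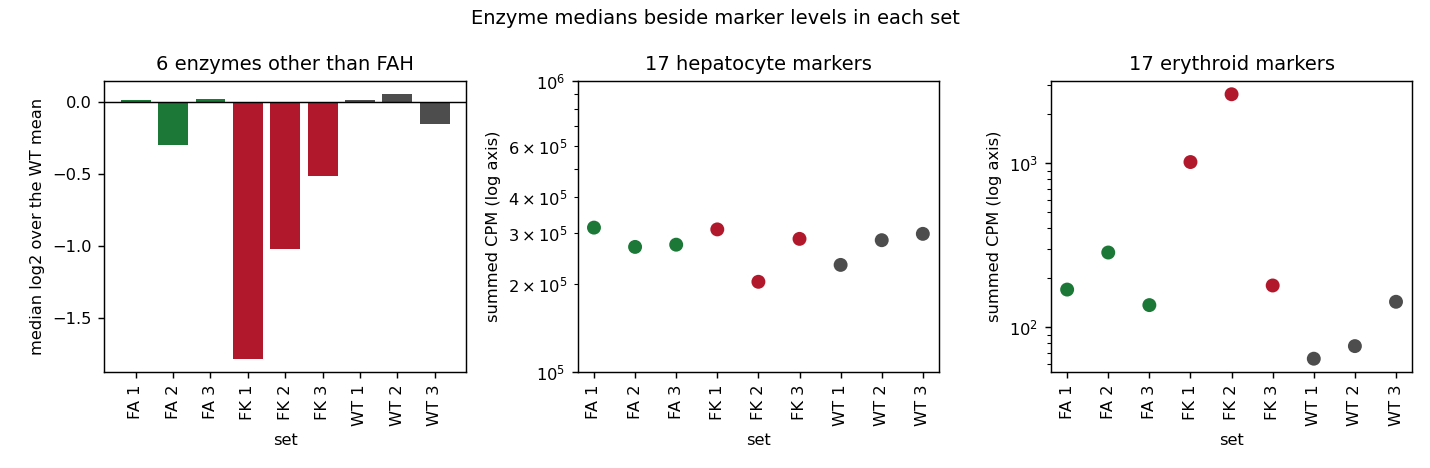
Median log2 of the 6 enzymes other than FAH over the WT mean (left), and summed CPM of 17 hepatocyte markers (middle, log axis) and 17 erythroid markers (right, log axis), in each of the 9 sets. The enzyme median was lowest in FK set 1, at -1.78, while the erythroid sum was highest in FK set 2, at 2628 CPM.

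Macrophage and Kupffer cell markers (8 in the table) summed to 233 to 335 CPM in FA, 360 to 654 in FK and 452 to 609 in WT, and 1 rose in FK (CD163). Endothelial markers (10) summed to 171 to 250.5 CPM in FA, 240.5 to 399 in FK and 302 to 360 in WT, with 1 lower in FK (CLEC4G). Stellate cell and fibroblast markers (10) summed to 147 to 226 CPM in FA, 197 to 290 in FK and 250.5 to 321 in WT, with no call. Bile duct markers (7) and lymphocyte markers (10) were near the lower end of measurement, at no more than 41.2 and 14.2 CPM in any set. The bile duct sum was 22.2, 41.2 and 5.52 CPM in FK sets 1, 2 and 3 and 10.2 to 12.55 CPM in WT, although the 1 marker called (SOX9) was lower in FK. Of the lymphocyte markers 2 were lower in FK. Over all genes tested, 3.04% rose in FK and 1.73% fell. None of the marker lists had a call between FA and WT in edgeR with all sets. DESeq2 called 1 erythroid marker and 1 cell division gene higher in FA and 1 macrophage marker lower, beside 342 calls over all genes.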

How the data were processed

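RNA sequencing of 36 rabbit liver libraries was analysed from 1 table. Its values are estimated counts per gene, whole numbers as deposited by the authors; Salmon 0.14.1 is named in the submitters' processing notes, while for settings, genome build and strand the sources used here say nothing. Genes that overlap on opposite strands are therefore uncertain.

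The 4 libraries of each numbered set were summed, since counts within sets correlated at a median r of 0.987 but varied more than sampling noise (median chi-square per degree of freedom of 1.58 to 4.45). One edgeR 4.0.16 model in R 4.3.3 held all 9 sets, after filterByExpr and TMM scaling, with quasi-likelihood F tests called at a Benjamini-Hochberg adjusted p under 0.05; 14939 genes remained. Standard errors come from the F statistic. Residual degrees of freedom were 6, with 2.89 added by the prior. The procedure was tested on simulated data. The 7 enzymes had 120 counts or more per library and 781 or more per summed set.

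The 7 enzymes and the gene lists were chosen with earlier results of these data known. Up to 3 called genes per list, or the one with the smallest p, were named, and the 3 nearest profiles (log2 of CPM + 0.5) for FAH, HPD, TAT and the mean of 6; further genes of the lists were chosen after their values were seen. One gene of a list and 1 nearest profile are not reported here. Neighbours and their order come from the RefSeq table of mOryCun1.1, which held all 7 symbols. Alternatives used DESeq2 1.42.0, other scalings and filters, limma 3.58.1 on 36 libraries and sets left out. Figures were drawn with matplotlib 3.10.9.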

Additional observations from a re-analysis of the deposited data

How the results depend on the processing

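FAH was called lower in FA and in FK against WT under all 18 alternatives, 17 of them planned; leaving out FK replicates 1 and 2 together was added after the data were seen. Counts of enzymes called changed as follows. For FA minus WT, 1 of 7 (0 of 6 without FAH) became 2 (1) with DESeq2 and with 36 libraries in limma-voom, where libraries of a set share a correlation of 0.791. For FK minus WT, 3 of 7 (2 of 6 without FAH) became 1 (0) in a fit of only the 2 groups compared, with library 1 of each set and without FK replicates 1 and 2, and 7 (6) with 36 libraries; without FAH it became 1 when scaled to hepatocyte markers and 1 with no filter on low counts. For FA minus FK, 0 of 7 (0 of 6) became 5 (4) with DESeq2 and 6 (6) with 36 libraries. The fit of 36 libraries called 3.44% of all genes for FA minus WT, 19.2% for FK minus WT and 17% for FA minus FK. Leaving out 1 replicate in turn gave 1 to 7 (0 to 6) for FK minus WT and 0 to 7 (0 to 6) for FA minus FK, with the high value in each case from leaving out FK replicate 3 and the low value from each of the other 8, and 1 (0) throughout for FA minus WT. The cause was not tested.

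Set numbers did not pair the groups: deviations of same-numbered sets from their group means correlated at -0.087 to 0.099. With the set number as a replicate block, FK minus WT had 1 of 7 called (0 of 6 without FAH), and 47 calls over all genes against 712.

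Over all genes, calls ran from 2 to 440 for FA minus WT (25 in the fit reported), from 22 to 5396 for FK minus WT (712) and from 0 to 5324 for FA minus FK (0). Signs changed for TAT, HGD and GSTZ1 in FA minus WT, which no setting called, and for TAT in FK minus WT, called with 36 libraries and without FK replicate 3. In FA minus WT, leaving out 1 replicate in turn gave -0.342 to 0.377 for TAT, -0.078 to 0.065 for HGD and -0.143 to 0.126 for GSTZ1. There TAT was 0.012 with 36 libraries, HGD -0.055 when scaled to hepatocyte markers, and GSTZ1 0.016 with the replicate block and 0.095 with library 1 of each set. TAT in FK minus WT was -0.055 without FK replicates 1 and 2.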
